A study of Mus musculus with 8 samples.

Results

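T cells that carried RNA of the natural killer (NK) receptor gene Klrb1c together with RNA of a Ly49 receptor gene were found among CD8 T cells isolated from mouse tumours. They were chosen from single-cell counts of unique molecular identifiers (UMIs, 1 per captured RNA molecule). A cell had at least 500 detected genes, less than 10% mitochondrial UMIs, at least 1 UMI of Cd3d, Cd3e and Cd3g together, at most 1 UMI of the macrophage genes Lyz2, C1qa, C1qb and C1qc together, at least 1 UMI of Klrb1c and at least 1 UMI of Klra1, Klra7 and Klra9 together. The rule kept 409 cells, called double-receptor cells here, of 36011 barcodes in 4 libraries, 32520 of which passed the cell filters and had a Cd3 UMI. They were set against 23172 receptor-negative cells, which met the same filters, had a UMI of Cd8a or Cd8b1 and had no UMI of the 4 receptor genes. Because the receptor genes, the Cd3 genes and the macrophage genes chose the cells, their values are a description and were not tested. The other genes tested were read from the same cells and UMIs as the rule.

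The cells came from wild type C57BL/6 mice with palpable tumours of MC38, a mouse colon carcinoma line, and droplet-based 5′ single-cell RNA libraries were made from them together with matched T cell receptor (TCR) libraries. In experiment 1 rhIL-7-hyFc, an interleukin-7 (IL-7) fused to a hybrid Fc for a longer half-life, was injected under the skin at 10 mg/kg, or buffer was, and the tumours were taken 7 days after rhIL-7-hyFc. CD8 T cells were enriched with magnetic beads by positive selection. In experiment 2 a subcutaneous dose of 1.25 mg/kg rhIL-7-hyFc was followed, from 3 days later, by an intravenous T cell engager (TCE) that binds both mouse PD-L1 and CD3ε (the combination), or was given alone. Collection in experiment 2 was 24 hours after the final dose, and CD45+ TCRb+ CD8a+ cells were sorted by flow cytometry with a viability dye. Whether NK cells passed this gate was not tested. Barcodes with both receptors and no Cd3 UMI numbered 4 with the combination and 25 with rhIL-7-hyFc at 1.25 mg/kg, beside 2 with rhIL-7-hyFc at 10 mg/kg and 5 with buffer. Every treatment has a single expression library with its TCR library, and the labels do not state how many mice went into it. Treatments therefore have no replicate check and no test, their intervals cover counting error only, and treatment cannot be told apart from library. Double-receptor and receptor-negative cells were instead compared within each of the 4 libraries, which mix treatments, doses and isolation methods, so those p-values measure the spread between libraries.

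Klrb1c encodes NK1.1 (NKR-P1C), an activating receptor used to recognise NK cells and NKT cells in C57BL/6 mice. The Ly49 genes encode lectin-like receptors, and Klra1 (Ly49A), Klra7 (Ly49G) and Klra9 (Ly49I) encode inhibitory members that bind MHC class I molecules. Some CD8 T cells carry such receptors beside a TCR, and have been described in mice as memory-like cells that respond to interleukin-15 and as regulatory cells with the transcription factor Helios. On the GRCm38 build with the GENCODE M21 annotation all 4 genes lie on the minus strand of chromosome 6, Klrb1c from 128778485 to 128789215, Klra9 from 130178675 to 130193112, Klra7 from 130218605 to 130233322 and Klra1 from 130363917 to 130386874. The genes of each family are close relatives, so UMIs of neighbouring paralogs can be assigned to one another or lost as ambiguous, and levels of single Klra and Klrb1 genes are uncertain.

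The libraries held 65036440 UMIs with rhIL-7-hyFc at 10 mg/kg, 47308214 with buffer, 92863323 with the combination and 118191371 with rhIL-7-hyFc at 1.25 mg/kg. Median UMIs per cell in these libraries were 8037.5, 6894.5, 5396 and 5163 in double-receptor cells, against 9738, 8517, 6494.5 and 5530.5 in receptor-negative cells, so the double-receptor cells were shallower in all 4. The summed UMIs of the double-receptor cells over the 30406 genes shared by both experiments were 1461491, 863687, 806413 and 367521. No barcode of a double-receptor cell occurred among the double-receptor cells of another library, although kept barcodes of any 2 libraries shared between 37 and 184 sequences.

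Double-receptor cells made up 152 of 5786 Cd3-positive barcodes (2.63%, 95% exact binomial interval 2.23 to 3.07) with rhIL-7-hyFc at 10 mg/kg and 94 of 4417 (2.13%, 1.72 to 2.60) with buffer. They made up 115 of 11127 (1.03%, 0.854 to 1.24) with the combination and 48 of 11190 (0.429%, 0.316 to 0.568) with rhIL-7-hyFc at 1.25 mg/kg. The intervals of the first pair overlapped and those of the second did not. Counted among Cd3-positive barcodes with at most 1 macrophage UMI only, the shares were 2.72% with rhIL-7-hyFc at 10 mg/kg and 2.73% with buffer, and 1.11% with the combination and 0.645% with rhIL-7-hyFc at 1.25 mg/kg. After thinning to 3000 UMIs per cell the order of the first pair turned, with 0.963% of Cd3-positive barcodes with rhIL-7-hyFc at 10 mg/kg and 1.18% with buffer, and the second pair stood at 0.490% with the combination and 0.249% with rhIL-7-hyFc at 1.25 mg/kg. Both isolation methods select on CD8 and can set these shares.

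**Figure D1:**
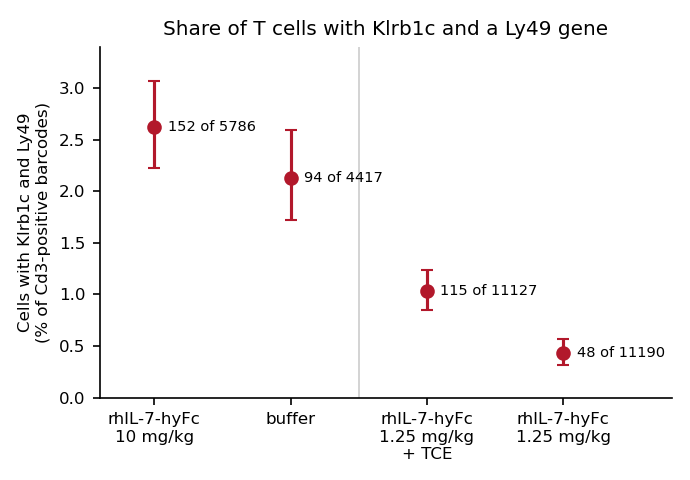
Share of Cd3-positive barcodes with Klrb1c and a Ly49 gene in each library (y axis, percent; points with 95% exact binomial intervals, counts of cells beside them); the grey line separates the experiments. The shares were 2.63% with rhIL-7-hyFc at 10 mg/kg, 2.13% with buffer, 1.03% with the combination and 0.429% with rhIL-7-hyFc at 1.25 mg/kg.

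Levels of the rule's own genes describe the cells and do not test their label. Cd3e, which encodes a signalling chain of the TCR complex, had a UMI in 99.3%, 91.5%, 98.3% and 91.7% of double-receptor cells of the 10 mg/kg, buffer, combination and 1.25 mg/kg libraries. Its level was 1133, 879, 914 and 978 CPM (UMIs of a gene per 1000000 UMIs summed over the cells) in double-receptor cells, against 1207, 1506, 1269 and 1249 CPM in receptor-negative cells of the same libraries. At least 2 UMIs of the 3 Cd3 genes were present in 98.7%, 93.6%, 100% and 100% of double-receptor cells. Klra7 was seen in 82.2%, 85.1%, 82.6% and 83.3% of them, Klra1 in 40.8%, 44.7%, 27.0% and 22.9%, and Klra9 in 19.1%, 16.0%, 13.9% and 10.4%. Of the 3 Ly49 genes, 96, 52, 88 and 40 cells had UMIs of 1, 48, 41, 27 and 8 cells had UMIs of 2, and 8, 1, 0 and 0 cells had UMIs of all 3.

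Many cells stood close to the rule's limits. Exactly 1 Klrb1c UMI was held by 55.3%, 46.8%, 64.3% and 62.5% of double-receptor cells of the 10 mg/kg, buffer, combination and 1.25 mg/kg libraries, and 21, 5, 25 and 11 cells had exactly 1 UMI of each kind. Just outside the rule stood 419, 72, 522 and 203 cells with Klrb1c and no Ly49 UMI, and 386, 321, 419 and 477 cells with a Ly49 UMI and no Klrb1c UMI. Of cells with Klrb1c, 26.6%, 56.6%, 18.1% and 19.1% also had a Ly49 UMI, against 7.71%, 9.79%, 4.31% and 6.63% of cells without Klrb1c. Among barcodes with macrophage RNA and no Cd3 UMI, used as a measure of free RNA, both kinds of receptor occurred together in 0 of 123, 0 of 109, 0 of 65 and 2 of 612 barcodes. A count of 0 allows shares of up to 2.44%, 2.75% and 4.62% in the first 3, and the share in the 1.25 mg/kg library was 0.327%, beside 0.645% of the Cd3-positive barcodes with few macrophage UMIs there. Median depths of the macrophage barcodes were 13514, 8722, 6262 and 5709 UMIs.

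The TCR beta chains of the double-receptor cells were nearly all different from one another. A clonotype was taken as 1 TRBV gene and 1 nucleotide sequence of CDR3, the junction that is unique to each rearrangement, and its size was counted over all Cd3-positive barcodes of the library. The sequences below are read 5′ to 3′, with the bases between the V and J gene matches in capitals. The first 4 are junctions of double-receptor cells seen in a single cell, 1 for each library.
TRBV17 with TRBJ2-1, 10 mg/kg: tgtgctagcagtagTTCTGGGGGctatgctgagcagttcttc
TRBV13-1 with TRBJ2-4, buffer: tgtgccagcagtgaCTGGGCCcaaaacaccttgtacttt
TRBV1 with TRBJ1-1, combination: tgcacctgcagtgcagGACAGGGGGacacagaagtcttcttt
TRBV29 with TRBJ2-5, 1.25 mg/kg: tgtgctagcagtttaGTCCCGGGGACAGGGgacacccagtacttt
The next was the only clonotype with more than 1 double-receptor cell. It held 3 double-receptor cells, no receptor-negative cell and 8 Cd3-positive barcodes in all.
TRBV2 with TRBJ1-4, 1.25 mg/kg: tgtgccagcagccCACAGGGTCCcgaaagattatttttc
The next 2 were each carried by 1 double-receptor cell and also by receptor-negative cells, 8 of them in the first and 57 in the second.
TRBV5 with TRBJ2-1, 10 mg/kg: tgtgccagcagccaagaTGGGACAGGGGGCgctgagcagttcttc
TRBV12-2+TRBV13-2 with TRBJ2-1, combination: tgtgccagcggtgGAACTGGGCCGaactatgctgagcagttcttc
The last 2 are the largest receptor-negative clonotypes of the buffer and combination libraries, with 122 and 549 receptor-negative cells, and neither held a double-receptor cell.
TRBV2 with TRBJ2-1, buffer: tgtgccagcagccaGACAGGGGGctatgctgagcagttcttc
TRBV16 with TRBJ2-5, combination: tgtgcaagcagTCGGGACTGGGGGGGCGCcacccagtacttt
All these genes lie in the beta chain locus on chromosome 6.

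Of double-receptor cells with a productive TRB contig, 145 cells of the 10 mg/kg library had 145 clonotypes, 71 cells of the buffer library had 71, 87 cells of the combination library had 87 and 31 cells of the 1.25 mg/kg library had 29. The share of cells in clonotypes of at least 2 cells was 2.76%, 4.23%, 6.90% and 25.8% in double-receptor cells of these libraries, against 13.8%, 73.6%, 54.8% and 46.6% in receptor-negative cells. It was lower in double-receptor cells in 4 of 4 libraries, and their highest value lay above the lowest of the receptor-negative cells, that of the 10 mg/kg library. The mean was 9.92 ± 10.7% in double-receptor cells and 47.2 ± 25% in receptor-negative cells (SD, n = 4 libraries), a difference of −37.3 points (SD 26.5, two-sided exact sign-flip permutation p = 0.13, the smallest that 4 libraries allow, adjusted p = 0.375 over 3 repertoire measures). Sizes were counted over the whole library for both classes. Of the double-receptor clonotypes 3, 1, 6 and 5 also occurred in receptor-negative cells of their library, and none was shared between libraries.

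Cells with only 1 of the receptors were compared next. With Klrb1c and no Ly49 UMI, 12%, 62.1%, 55.1% and 33.6% of cells were in clonotypes of at least 2 cells in the 10 mg/kg, buffer, combination and 1.25 mg/kg libraries, and double-receptor cells were lower in 4 of 4 (mean difference −30.8 points, SD 26.0, exact sign-flip p = 0.13). With Ly49 and no Klrb1c UMI, the shares were 2.49%, 14.2%, 4.21% and 9.62%, and double-receptor cells were higher in 3 of 4 (mean difference 2.28 points, SD 10.8, exact sign-flip p = 0.625). These and the further splits below belong to 53 differences chosen after the data were seen. Of these, 26 reached the smallest p that 4 libraries allow, which becomes 0.255 after adjustment over the 53.

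**Figure D2:**
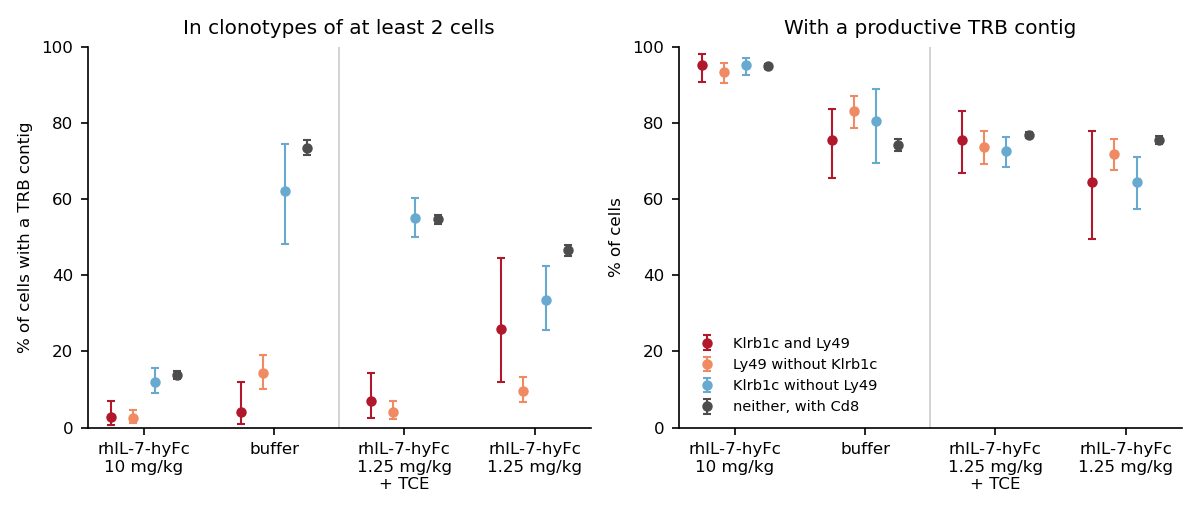
Left, share of cells with a TRB contig that belong to clonotypes of at least 2 cells; right, share of cells with a productive TRB contig (y axes, percent; points with 95% exact binomial intervals), by library and by receptor class. Cells with a Ly49 UMI, with or without Klrb1c, lie at 2.49% to 25.8% on the left, below receptor-negative cells of the same library. On the right, double-receptor and receptor-negative cells of the 1.25 mg/kg library stand at 64.6% and 75.7%.

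A productive TRB contig was found in 145 of 152 double-receptor cells (95.4%, 95% exact binomial interval 90.7 to 98.1) of the 10 mg/kg library, 71 of 94 (75.5%, 65.6 to 83.8) of the buffer library, 87 of 115 (75.7%, 66.8 to 83.2) of the combination library and 31 of 48 (64.6%, 49.5 to 77.8) of the 1.25 mg/kg library. The shares in receptor-negative cells were 95.0%, 74.3%, 76.8% and 75.7%. The difference was −2.64 points on average (SD 5.72, n = 4 libraries) and higher in 2 of 4 libraries (exact sign-flip p = 0.75, adjusted p = 0.875). Without the 1.25 mg/kg library it was 0.17 points. Of double-receptor cells with a TRB contig 11.7%, 5.63%, 9.20% and 12.9% had at least 2 productive TRB contigs, against 8.46%, 7.03%, 9.54% and 7.43% of receptor-negative cells.

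Shares of single V genes were compared without a test. The widest differences were those of TRBV5 and TRBV16. TRBV5 made up 8.28%, 2.82%, 3.45% and 3.23% of double-receptor cells with a TRB contig in the 10 mg/kg, buffer, combination and 1.25 mg/kg libraries, against 6.94%, 14.9%, 6.40% and 11.4% of receptor-negative cells. TRBV16 made up 6.21%, 7.04%, 3.45% and 3.23% of double-receptor cells, against 8.67%, 6.45%, 14.9% and 7.13% of receptor-negative cells. Each was lower in double-receptor cells in 3 of 4 libraries, on 12, 2, 3 and 1 cells for TRBV5 and 9, 5, 3 and 1 cells for TRBV16, and the largest receptor-negative clonotype of the combination library, shown above, uses TRBV16. TRBV12-2 made up 12.4%, 8.45%, 11.5% and 9.68% of double-receptor cells in these libraries, against 7.75%, 8.96%, 6.17% and 6.79% of receptor-negative cells. TRBV3 made up 7.59%, 9.86%, 5.75% and 9.68% of double-receptor cells, against 5.97%, 5.44%, 4.75% and 5.25% of receptor-negative cells, but these shares rest on 11, 7, 5 and 3 cells. Mean CDR3 length was 41.9 bases in both classes (difference −0.06, SD 0.43, exact sign-flip p = 0.875). The invariant TRAV11 with TRAJ18 alpha chain of type I NKT cells was found in 1 double-receptor cell, in the combination library, with the junction shown next.
TRAV11 with TRAJ18, chromosome 14, combination: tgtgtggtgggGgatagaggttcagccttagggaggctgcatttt
That cell had no UMI of Zbtb16, the transcription factor of NKT cells, and 12 Cd8 UMIs, and over all double-receptor cells Zbtb16 had 1, 0, 0 and 1 UMIs. The counts of 0 of 142, 69 and 27 double-receptor cells with an alpha chain in the other libraries allow shares of up to 2.11%, 4.35% and 11.1%.

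CD8 T cells selected in the thymus use a CD8αβ pair encoded by Cd8a and Cd8b1, whereas some innate-like T cells carry CD8α without CD8β. Cd8b1 had a UMI in 61.2%, 51.1%, 47.8% and 60.4% of double-receptor cells of the 10 mg/kg, buffer, combination and 1.25 mg/kg libraries, against 98.8%, 91.9%, 97.8% and 97.3% of receptor-negative cells, whose rule asked for a UMI of either chain. Among cells with a Cd8a UMI, Cd8b1 was missing in 26.7%, 45.5%, 41.5% and 32.5% of double-receptor cells, against 1.25%, 8.57%, 2.33% and 2.80% of receptor-negative cells, and no pair of 95% intervals overlapped. Both chains were at lower levels in double-receptor cells. Cd8a had 468, 297, 483 and 596 CPM in double-receptor cells, against 793, 1257, 1028 and 1075 CPM in receptor-negative cells, and the part of these levels and of depth in the missing Cd8b1 UMIs was not tested. Cd8b1 UMIs per Cd8a UMI numbered 1.26, 0.475, 0.885 and 0.859 in double-receptor cells, against 1.58, 1.00, 0.982 and 1.02 in receptor-negative cells, a narrow gap in the combination and 1.25 mg/kg libraries. Cd4 had 0, 0, 0 and 6 UMIs in double-receptor cells. No UMI of either Cd8 gene was found in 18.4%, 17%, 22.6% and 12.5% of them, and in the sorted libraries this stands beside a gate on CD8α protein.

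Gene expression was compared on UMIs summed per library and class, with edgeR's quasi-likelihood test, the library as a block and Benjamini-Hochberg adjustment over 8703 genes. At an adjusted p under 0.05, 188 genes were higher in double-receptor cells (2.16% of those tested) and 291 were lower (3.34%), and 455 of these 479 had the same direction in all 4 libraries. The number called fell to 172 without the combination library and was 397 with DESeq2, 198 of them higher and 199 lower. Among genes named below, the calls of Bcl2, Cd5, Crtam, Cst3, Cxcr4, Gzmb, Gzmd, Id3, Ifng, Igfbp4, Irf4 and Itga4 were lost without the combination library. So were those of Itgb1, Marcks, Mki67, Ptpn6, Rgs8, Sh2d2a, Socs3, Tbx21, Tnf, Tnfrsf4, Tnfrsf9 and Trac. Those of Irf4, Tbx21, Tnf and Trac were also lost without the buffer library, those of Gzmb, Irf4, Itga4, Itgb1, Sh2d2a, Tnf and Trac without the 10 mg/kg library and those of Crtam, Gzmb, Itga4, Sh2d2a, Tbx21 and Trac without the 1.25 mg/kg library. Genes were tested at a mean of at least 5 CPM over both classes. Of the 188 higher genes 41 averaged under 5 CPM in receptor-negative cells, and of the 291 lower genes 33 did so in double-receptor cells, so these passed that filter only through the class where they are high and their calls depend on it. The median log2 fold change of all genes tested was −0.02. Counts of listed genes below are to be read against those percentages.

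Several NK receptor and adaptor genes were higher in double-receptor cells. Ncr1, which encodes the activating receptor NKp46 (chromosome 7, 4337724 to 4345164, plus strand), had 22.6, 68.3, 39.7 and 32.7 CPM in double-receptor cells of the 10 mg/kg, buffer, combination and 1.25 mg/kg libraries, against 0.0813, 0.103, 0.101 and 0.298 CPM in receptor-negative cells. The classes did not overlap, and the log2 fold change was 8.07 (SE 0.42, edgeR adjusted p = 1.6e-07), but the UMIs sat in 11, 21, 4 and 6 double-receptor cells and 1 cell held 71.9% of those in the combination library. Fcer1g, which encodes the Fc receptor gamma chain, an adaptor of activating receptors (chromosome 1, 171229572 to 171234365, minus strand), had 523, 1381, 655 and 1339 CPM in double-receptor cells, against 65.4, 231, 89.3 and 269 CPM in receptor-negative cells. Every double-receptor value lay above every receptor-negative value, at a log2 fold change of 2.68 (SE 0.12, edgeR adjusted p = 6.7e-08). Tyrobp, which encodes DAP12, the partner chain of activating Ly49 and CD94 receptors (chromosome 7, 30413760 to 30417585, plus strand), had 218, 699, 145 and 686 CPM in double-receptor cells, against 20.4, 92.8, 26.5 and 110 CPM in receptor-negative cells, a log2 fold change of 2.86 (SE 0.14, edgeR adjusted p = 1.5e-07).

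Fcer1g and Tyrobp are also strongly expressed by macrophages. The macrophage and monocyte list of 12 genes summed to 2903 to 4628 CPM in double-receptor cells and 3115 to 4357 CPM in receptor-negative cells over the 4 libraries. These sums do not measure macrophage RNA, because the list holds Ly6c2, which is also in the virtual memory CD8 list. The sum was 3729 CPM in double-receptor cells of the 10 mg/kg library, where Csf1r, Fcgr1, Adgre1 and Ms4a7 were at 0. The defining macrophage markers Csf1r, Fcgr1 and Adgre1 were at 0 in double-receptor cells of the 10 mg/kg and combination libraries, among 1461491 and 806413 summed UMIs. In the buffer and 1.25 mg/kg libraries these markers were above 0. The rule itself limited macrophage UMIs in both classes. The part of macrophage RNA in the Fcer1g and Tyrobp levels was not tested in any library. Of the 9 macrophage and monocyte list genes tested none rose and 1 fell, Cst3, which encodes cystatin C. The NK defining list of 7 genes summed to 808, 2247, 894 and 2130 CPM in double-receptor cells of the 10 mg/kg, buffer, combination and 1.25 mg/kg libraries, against 90.3, 332, 121 and 391 CPM in receptor-negative cells. Of the 6 tested, Fcer1g and Tyrobp rose and reached the filter of 5 CPM in both classes. The other 4, Ncr1, Fcgr3, Clnk and Klrb1f, were called higher but passed the filter only through the double-receptor cells, so their count supports nothing. Of 16 tested genes of the longer NK identity list 10 were called higher, 6 of them through that class alone, and none lower. Eomes, a transcription factor of NK cells and memory CD8 T cells, had 60.2, 54.4, 39.7 and 43.5 CPM in double-receptor cells, against 59.3, 16.5, 36.4 and 41.5 CPM in receptor-negative cells, and was not called (edgeR adjusted p = 0.44).

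**Figure D3:**
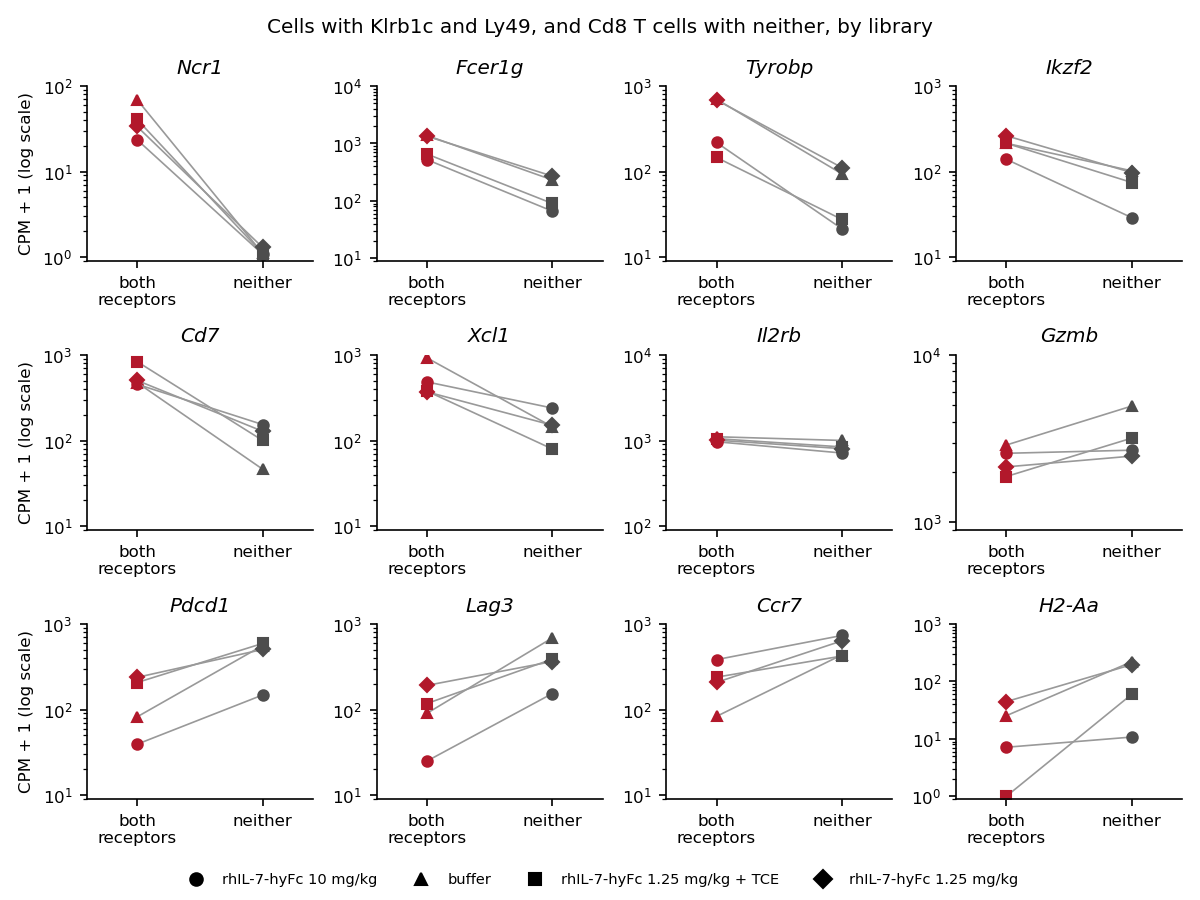
Expression of 12 genes in double-receptor cells (red, left) and receptor-negative cells (grey, right) of each library, in CPM plus 1 on a log axis; lines join the classes of 1 library. Ncr1, Fcer1g, Tyrobp, Ikzf2, Cd7 and Xcl1 lay higher in double-receptor cells in all 4 libraries, and Pdcd1, Lag3, Ccr7 and H2-Aa lay lower.

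Other receptor genes moved with them. Klrc2, which encodes the activating receptor NKG2C, had 52.0, 72.9, 63.2 and 24.5 CPM in double-receptor cells of the 10 mg/kg, buffer, combination and 1.25 mg/kg libraries, against 12.4, 10.2, 15.3 and 12.1 CPM in receptor-negative cells (log2 fold change 2.13, SE 0.23, edgeR adjusted p = 0.00017). Of 7 tested genes of the NKG2 and CD94 list 2 rose, Klrc2 and Klre1, and none fell, while Klrc1, which encodes the inhibitory NKG2A, was not called (298, 262, 357 and 476 CPM in double-receptor cells, against 274, 610, 602 and 514 CPM in receptor-negative cells) except without the 10 mg/kg library (log2 fold change −0.66, edgeR adjusted p = 0.043). Of 12 genes of the list of other NK receptors 4 rose, Ncr1, Cd7, Cd160 and Crtam, and Lag3 fell. Of the 4, Ncr1 was called through double-receptor cells alone. Cd7, an early T and NK lineage gene, had 454, 476, 837 and 503 CPM in double-receptor cells, against 153, 45.3, 99.3 and 127 CPM in receptor-negative cells, and Cd160, a receptor for HVEM, rose at a log2 fold change of 0.99. All 5 other Ly49 genes tested were higher, as was Klrb1a, but the families share reads with the genes of the rule and these calls are not counted as support. Of 13 adaptor and inhibitor genes 3 rose, Tyrobp, Fcer1g and the Src kinase gene Lyn, and 2 fell, Ptpn6, which encodes the phosphatase SHP-1, and Sh2d2a.

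Among genes of transcription and memory, Ikzf2, which encodes Helios (chromosome 1, 69531214 to 69687245, minus strand), had 138, 213, 213 and 261 CPM in double-receptor cells of the 10 mg/kg, buffer, combination and 1.25 mg/kg libraries, against 27.9, 101, 73.5 and 96.3 CPM in receptor-negative cells. The classes did not overlap, and the log2 fold change was 1.58 (SE 0.15, edgeR adjusted p = 5.7e-05). The remaining genes of the Helios regulatory list did not move with it: of 7 tested, Ikzf2 rose and Prf1, which encodes perforin, fell. Of 16 virtual memory genes 5 rose, Xcl1, Ccl5, Bcl2, Itga4 and Itgb1, and 2 fell, Dapl1 and Tbx21, and without the combination library 2 rose and 1 fell. Xcl1, a chemokine that draws cross-presenting dendritic cells, had 484, 926, 378 and 370 CPM in double-receptor cells, against 239, 144, 78.7 and 150 CPM in receptor-negative cells (log2 fold change 1.82, SE 0.24, edgeR adjusted p = 0.00074). Il2rb, which encodes the CD122 chain of the interleukin-2 and interleukin-15 receptors, had 968, 1107, 1052 and 1009 CPM in double-receptor cells, against 714, 1001, 842 and 803 CPM in receptor-negative cells, and was not called (log2 fold change 0.30, SE 0.09, edgeR adjusted p = 0.081), but was without the buffer library (0.34, edgeR adjusted p = 0.028). Tcf7, which encodes TCF-1, was not called either (log2 fold change 0.90, SE 0.26, edgeR adjusted p = 0.066), but was without the 10 mg/kg library (1.32, edgeR adjusted p = 0.014) and without the 1.25 mg/kg library (1.11, edgeR adjusted p = 0.030).

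Among the 12 genes with the widest gaps upward were Rbpms, Bmp7, Clnk, Zbtb10, Sulf2, Kifc3 and Cxxc5. All 7 were under 5 CPM in receptor-negative cells of every library and passed the filter only through double-receptor cells, so their rank and their calls depend on that class. Rbpms, an RNA-binding protein gene, had 32.8, 66.0, 28.5 and 19.0 CPM in double-receptor cells of the 10 mg/kg, buffer, combination and 1.25 mg/kg libraries, against 0.752, 3.76, 1.42 and 2.34 CPM in receptor-negative cells (log2 fold change 4.34, SE 0.34, edgeR adjusted p = 1.2e-05). Bmp7, which encodes a secreted morphogen, had 11.6, 27.8, 23.6 and 16.3 CPM in double-receptor cells, against 0.691, 2.62, 1.5 and 1.95 CPM in receptor-negative cells. Clnk, an immune adaptor gene of NK and mast cells, Zbtb10, Sulf2, Kifc3 and Cxxc5 rose by log2 fold changes of 3.14 to 3.49, and Sulf2 by 4.06 without the combination library. Of 5 gamma delta T cell genes tested 1 was called higher, also through double-receptor cells alone, Tcrg-C4, a constant segment of the gamma chain locus, with 28.7, 38.2, 12.4 and 27.2 CPM in double-receptor cells, against 1.87, 4.07, 0.722 and 1.12 CPM in receptor-negative cells. The delta chain gene Trdc was too low to test, with 3, 15, 2 and 0 UMIs in double-receptor cells.

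Several exhaustion genes were lower in double-receptor cells. Pdcd1, which encodes PD-1, had 38.3, 81.0, 206 and 237 CPM in double-receptor cells of the 10 mg/kg, buffer, combination and 1.25 mg/kg libraries, against 147, 558, 592 and 503 CPM in receptor-negative cells (log2 fold change −1.82, SE 0.18, edgeR adjusted p = 0.0001). Lag3, another inhibitory receptor gene, had 23.9, 89.2, 117 and 190 CPM in double-receptor cells, against 153, 687, 387 and 363 CPM in receptor-negative cells (log2 fold change −2.07). Of 18 exhaustion genes tested 10 fell and none rose, with a median log2 fold change of −1.14. Of these 10, Cd200 was called through receptor-negative cells alone. Havcr2, which encodes TIM-3, fell by 2.36 on the log2 scale and by 1.77 without the buffer library. Of 15 early TCR signal genes 5 fell, among them Tnfrsf4, which encodes OX40 (log2 fold change −2.36, −1.76 without the buffer library and −3.26 without the 1.25 mg/kg library), and Cd5, whose level follows TCR signal strength, and Spry2 rose. Spry2 was called through double-receptor cells alone. Of 18 cytotoxicity genes 6 fell and none rose, and 3 fell without the combination library. Prf1 fell by 0.96 on the log2 scale and Gzmf by 2.05, and Gzmb was at 2585, 2896, 1877 and 2144 CPM in double-receptor cells, against 2698, 4954, 3186 and 2487 CPM in receptor-negative cells (log2 fold change −0.47, edgeR adjusted p = 0.038).

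Gzma, a granzyme gene of NK cells, was not called (log2 fold change 0.88, SE 0.40, edgeR adjusted p = 0.27), and its log2 fold change was 0.23 without the buffer library. Its level was 308, 1162, 2018 and 392 CPM in double-receptor cells of the 10 mg/kg, buffer, combination and 1.25 mg/kg libraries, against 188, 166, 2958 and 231 CPM in receptor-negative cells, higher in 3 libraries and lower in the combination library. Of 20 cell cycle genes 13 fell and none rose, and 8 fell without the combination library. Of the 13, Ccnb1 was called through receptor-negative cells alone. Mki67 had 33.5, 42.8, 45.9 and 40.8 CPM in double-receptor cells, against 43.2, 78.2, 88.2 and 71.7 CPM in receptor-negative cells (log2 fold change −0.74). Of 19 T cell core genes 5 fell, Trac, Cd5, Cd6, Lat and Themis, and none rose. Ccr7, the receptor that guides T cells to lymph nodes, had 382, 82.2, 238 and 207 CPM in double-receptor cells, against 734, 436, 422 and 635 CPM in receptor-negative cells (log2 fold change −1.39, SE 0.18, edgeR adjusted p = 0.00071).

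The widest gaps downward included genes of mature dendritic cells. Fscn1, which encodes the actin bundler fascin, had 0, 5.79, 1.24 and 0 CPM in double-receptor cells of the 10 mg/kg, buffer, combination and 1.25 mg/kg libraries, against 3.88, 218, 40.6 and 83.8 CPM in receptor-negative cells, and its call was lost after thinning to 3000 UMIs per cell. Of 5 MHC class II genes 4 fell, with a median log2 fold change of −2.47, and the 5 summed to 39.0, 156, 22.3 and 346 CPM in double-receptor cells, against 95.7, 1123, 298 and 974 CPM in receptor-negative cells. Of the dendritic cell list 2 of 5 tested genes fell, Fscn1 and Ccr7. Fscn1 was called through receptor-negative cells alone, and Ccr7 is also a gene of the naive and memory list, so this count supports nothing about dendritic cells. The 10 genes of the dendritic cell list summed to 1494, 915, 699 and 1097 CPM in double-receptor cells, against 1799, 1549, 953 and 1531 CPM in receptor-negative cells, and 7, 4, 5 and 5 of them were at 0 in double-receptor cells. These sums include Ccr7 and Bst2, which is also in the interferon response list, and do not measure dendritic cell RNA alone. The part of dendritic cell RNA in these differences was not tested. The remaining genes of the 12 widest gaps downward were H2-Eb1, Cacnb3, Penk, Prl2c2, Tbc1d4, Marcks, Rgs8, Cd200, Adgrg1, Gzmg and Ccr8, with log2 fold changes between −5.02 and −3.01, each under 25 CPM in every double-receptor value. Fscn1, Cacnb3, Penk, Prl2c2, Tbc1d4, Marcks, Rgs8, Cd200 and Adgrg1 averaged under 5 CPM in double-receptor cells. They passed the filter only through receptor-negative cells, so their rank and their calls depend on that class. Folds of such low genes moved with single libraries. Without the buffer library the log2 fold change was −6.12 for Fscn1, −6.42 for Gzmg, −2.41 for Ccr8 and −2.92 for Marcks. It was −5.01 for Adgrg1 without the combination library, −4.65 for Rgs8 without the 10 mg/kg library and −3.80 for Ccr8 without the 1.25 mg/kg library. Cacnb3 and Penk had UMIs in double-receptor cells of the 10 mg/kg library alone, and Tbc1d4 and Prl2c2 in those of the buffer library alone, so their fitted folds rest on these.

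Because clonotype size differed between the classes, the comparison was repeated on cells whose clonotype was seen once in its library, a choice made after the data were seen. It used 141, 68, 81 and 23 double-receptor cells and 3740, 549, 3201 and 2666 receptor-negative cells of the 10 mg/kg, buffer, combination and 1.25 mg/kg libraries. Of 8491 genes tested 168 were higher (1.98%) and 110 lower (1.30%), and 176 of these calls were also made above. The log2 fold change was 4.40 for Fcer1g, 3.21 for Tyrobp, 3.02 for Ikzf2 and 1.93 for Xcl1, all higher in double-receptor cells (largest edgeR adjusted p = 2.7e-05, of Xcl1). Il2rb was now called at a log2 fold change of 0.73 (SE 0.09, edgeR adjusted p = 2.8e-05), with 987, 1105, 1064 and 1120 CPM in double-receptor cells of the 10 mg/kg, buffer, combination and 1.25 mg/kg libraries, against 603, 654, 658 and 551 CPM in receptor-negative cells. Of 16 exhaustion genes 5 fell, Pdcd1, Havcr2, Lag3, Ctla4 and Entpd1, and 3 rose, Nr4a2, Cd244a and Tnfrsf9, the last of which was lower over all cells (log2 fold change −0.50). Havcr2 averaged under 5 CPM in double-receptor cells here and passed the filter only through receptor-negative cells. The median of the exhaustion list was −0.19. Cell cycle genes fell in 3 of 20 cases and MHC class II genes in 1 of 5. Early TCR signal genes were split, with Nr4a2, Nr4a3, Tnfrsf9 and Spry2 higher and Tnfrsf4, Irf4 and Cd5 lower among 15. Spry2 was under 5 CPM in receptor-negative cells of every library and passed the filter only through double-receptor cells. Tnfrsf4 and Irf4 averaged under 5 CPM in double-receptor cells and passed it only through receptor-negative cells, so these calls depend on that class. Prf1, Gzmb, Gzmf and Mki67 were not called, and neither were Tbx21 and Ifng, whose log2 fold changes of 0.13 and 0.61 had the opposite sign. The part of the smaller number of cells in the lost calls was not tested.

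**Figure D4:**
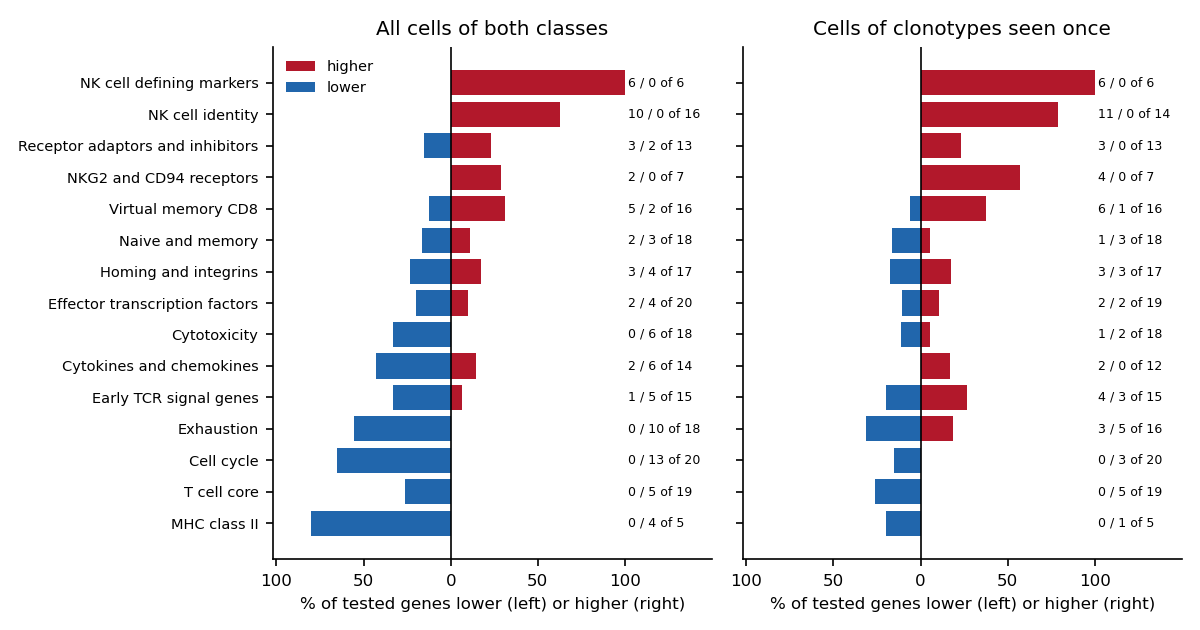
Share of the tested genes of 15 gene lists that were higher (red, right) or lower (blue, left) in double-receptor than in receptor-negative cells by edgeR at an adjusted p under 0.05, over all cells (left panel) and over cells of clonotypes seen once (right panel); counts of higher and lower genes stand at the right of each row. The NK defining list has 6 of 6 genes higher in both panels, 4 of which in the left panel passed the filter on low values only through double-receptor cells. In the right panel Ncr1, Klrb1f and Clnk were under 5 CPM in receptor-negative cells of every library and passed it in the same way. The cell cycle list goes to 3 of 20 lower in the right panel, beside 13 of 20 in the left.

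Fcer1g was set against the receptor genes cell by cell. A UMI was found in 57.9%, 93.6%, 73.0% and 83.3% of double-receptor cells of the 10 mg/kg, buffer, combination and 1.25 mg/kg libraries. It was found in 25.9%, 66.4%, 35.1% and 46.1% of cells with Ly49 alone, in 12.9%, 59.7%, 25.1% and 35.5% of cells with Klrb1c alone, and in 10.2%, 44.7%, 11.4% and 25.2% of receptor-negative cells. The order of the classes was the same in all 4 libraries. Double-receptor cells exceeded cells with Ly49 alone by 33.6 points on average (SD 4.99) and cells with Klrb1c alone by 43.7 points (SD 6.66), both in 4 of 4 libraries (exact sign-flip p = 0.13 each). Ikzf2 had a UMI in 53.3%, 64.9%, 64.3% and 58.3% of double-receptor cells, and it exceeded cells with Ly49 alone in 3 of 4 libraries only, by 12.1 points on average (SD 14.1, exact sign-flip p = 0.25). In the buffer library 72.9% of cells with Ly49 alone had Ikzf2. Depth differed between the classes, with medians of 8623, 6982, 5362 and 4600 UMIs in cells with Ly49 alone and 10141, 8974, 6569 and 6242 UMIs in cells with Klrb1c alone.

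Double-receptor cells were not alike among themselves. Those without a Cd8b1 UMI numbered 59, 46, 60 and 19 in the 10 mg/kg, buffer, combination and 1.25 mg/kg libraries, and those with one 93, 48, 55 and 29. In the 10 mg/kg library Fcer1g had a UMI in 96.6% of cells without Cd8b1 and in 33.3% of cells with it. In the buffer library these shares were 93.5% and 93.8%, in the combination library 85.0% and 60.0% and in the 1.25 mg/kg library 84.2% and 82.8%. The split was wide in the 10 mg/kg and combination libraries and narrow in the other two. As a level, Fcer1g had 1224, 1557, 1013 and 1476 CPM in cells without Cd8b1, against 200, 1221, 452 and 1280 CPM in cells with it, higher in 4 of 4 libraries (exact sign-flip p = 0.13). Cd7, Cd160 and Tyrobp levels were also higher without Cd8b1 in 4 of 4 libraries, and Ccr7 and Pdcd1 levels were lower in 4 of 4. The share of cells with a UMI was higher without Cd8b1 in 3 of 4 libraries for Cd7 and Tyrobp. For Cd160 it was lower in 3 of 4, and for Ccr7 and Pdcd1 lower in 4 of 4. Ccr7 had 67.2, 56.1, 118 and 79.2 CPM in cells without Cd8b1, against 527, 106, 304 and 254 CPM in cells with it. A TRB contig was found in 96.6%, 78.3%, 83.3% and 68.4% of double-receptor cells without Cd8b1, against 94.6%, 72.9%, 67.3% and 62.1% of those with it. Median UMIs were 7344, 7082.5, 4466 and 3940 without Cd8b1 and 8728, 6799, 8328 and 6657 with it, so cells without Cd8b1 were shallower in 3 of 4 libraries, and the part of depth in this split was not tested.

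**Figure D5:**
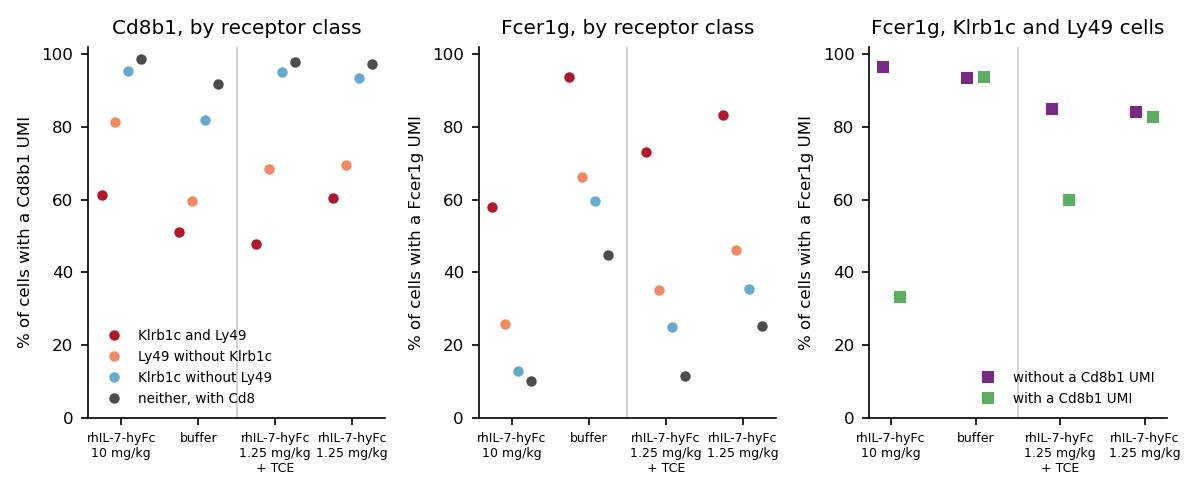
Share of cells with a Cd8b1 UMI (left) and with a Fcer1g UMI (middle) by library and receptor class, and share of double-receptor cells with a Fcer1g UMI split by Cd8b1 (right); y axes in percent, 1 point per library and class. Fcer1g was found in 57.9% to 93.6% of double-receptor cells, the highest class of every library, and within them the split by Cd8b1 was widest with rhIL-7-hyFc at 10 mg/kg, 96.6% without and 33.3% with Cd8b1.

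Double-receptor cells with a productive TRB contig were compared with those without one in the buffer, combination and 1.25 mg/kg libraries, since the 10 mg/kg library had only 7 without. By edgeR's quasi-likelihood test 4 of 8712 genes were higher with a contig (0.0459%) and 9 were lower (0.103%), while 472 had an unadjusted p under 0.05 and DESeq2 called 1. The genes lower with a contig were led by granzymes. Gzmc had 715, 210 and 956 CPM in cells with a contig of the buffer, combination and 1.25 mg/kg libraries, against 6440, 482 and 5058 CPM in cells without one (log2 fold change −2.36, SE 0.22, edgeR adjusted p = 2.9e-05). Gzmd, Gzme and Gzma, the secreted phosphoprotein gene Spp1, Car2 and the interferon-induced membrane protein genes Ifitm2 and Ifitm3 were lower as well. Of these, Gzme averaged under 5 CPM in cells with a contig and passed the filter only through cells without one. Ccl5 was higher with a contig (log2 fold change 0.50). These sums rest on few cells: 1 cell held 38.9% of the Gzmc UMIs of all double-receptor cells of the buffer library, 38.2% of those of the combination library and 39.9% of those of the 1.25 mg/kg library. None of the 7 NK defining genes and none of the 20 T cell core genes tested was called between cells with and without a contig. With 0.0459% of all genes called higher and 0.103% lower, this says little about either list. Cells without a contig numbered 23, 28 and 17 in the buffer, combination and 1.25 mg/kg libraries.

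Between treatments, genes were called by size alone, where at least 1 library had 100 CPM and the ratio of CPM + 10 was at least 2-fold, and intervals of folds are exact conditional binomial ones (95%). With rhIL-7-hyFc at 10 mg/kg, 15 of 1395 genes were called higher in double-receptor cells than with buffer (1.08%) and 27 lower (1.94%), and 65 higher and 97 lower after thinning to 3000 UMIs per cell. Gzmm, a granzyme gene of memory and innate lymphocytes, had 145 CPM in double-receptor cells of the 10 mg/kg library and 20.8 CPM in those of the buffer library (6.96-fold, interval 4.30 to 12), beside 131 and 8.52 CPM in receptor-negative cells. Ccr7 had 382 CPM with rhIL-7-hyFc at 10 mg/kg and 82.2 CPM with buffer (4.65-fold, 3.63 to 6.04), beside 734 and 436 CPM in receptor-negative cells. Cd6, Ifit3b and Rgs10 were higher as well, as was Ccl4, of whose UMIs 1 cell held 71.7%.

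Granzymes C, D and E were lower. Gzmc had 209 CPM with rhIL-7-hyFc at 10 mg/kg and 2386 CPM with buffer (0.0875-fold, 0.0773 to 0.0987), and 1 cell held 56.7% and 38.9% of its UMIs in these libraries. Gzma had 308 CPM with rhIL-7-hyFc at 10 mg/kg and 1162 CPM with buffer (0.265-fold, 0.236 to 0.296), whereas receptor-negative cells had 188 and 166 CPM. Fcer1g had 523 CPM with rhIL-7-hyFc at 10 mg/kg and 1381 CPM with buffer (0.379-fold, 0.346 to 0.415), beside 65.4 and 231 CPM in receptor-negative cells, and Tyrobp had 218 and 699 CPM (0.311-fold, 0.271 to 0.357). Of myeloid genes, Csf1r, Fcgr1 and Adgre1 were at 0 with rhIL-7-hyFc at 10 mg/kg and at 1.16, 4.63 and 1.16 CPM with buffer, C1qb had 2.05 CPM with rhIL-7-hyFc at 10 mg/kg and 13.9 CPM with buffer, and Spp1 had 19.2 and 201 CPM in these libraries. The part of myeloid RNA in these differences was not tested. Pdcd1 had 38.3 CPM with rhIL-7-hyFc at 10 mg/kg and 81.0 CPM with buffer (0.473-fold, 0.327 to 0.682), and Il2rb 968 and 1107 CPM (0.874-fold, 0.805 to 0.95). Of 15 T cell core genes measured 3 were called higher with rhIL-7-hyFc at 10 mg/kg, Cd6, Cd27 and Lat, and none lower.

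With the combination, 7 of 1583 genes were called higher in double-receptor cells than with rhIL-7-hyFc at 1.25 mg/kg alone (0.442%) and 45 lower (2.84%). The split depended on depth, with 118 called higher and 89 lower after thinning to 3000 UMIs per cell. Gzma had 2018 CPM with the combination and 392 CPM with rhIL-7-hyFc alone (5.15-fold, 4.34 to 6.15), beside 2958 and 231 CPM in receptor-negative cells. Pim2, a kinase gene induced by cytokine signals, had 122 CPM with the combination and 49.0 CPM with rhIL-7-hyFc alone (2.48-fold, 1.49 to 4.36), beside 43.5 and 68.7 CPM in receptor-negative cells. Gpr18, Ass1 and Gars were also higher. The genes called lower were led by those of myeloid cells. Ccl7, a monocyte chemokine gene, had 1 UMI with the combination and 113 with rhIL-7-hyFc alone (0.00403-fold, 0.000101 to 0.0229), Cd74, the MHC class II chaperone gene, 1 and 91 UMIs, and Il1b 0 and 61 UMIs, and 1 cell held all 73 Ly6d UMIs of the 1.25 mg/kg library. Csf1r, Fcgr1 and Adgre1 were at 0 with the combination and above 0 with rhIL-7-hyFc alone, and the part of myeloid RNA in these differences was not tested. Fcer1g had 655 CPM with the combination and 1339 CPM with rhIL-7-hyFc alone (0.489-fold, 0.432 to 0.554), beside 89.3 and 269 CPM in receptor-negative cells, and Tyrobp had 145 and 686 CPM (0.212-fold, 0.168 to 0.265). The folds of Ikzf2 (0.817, interval 0.632 to 1.06), Il2rb (1.04, 0.921 to 1.18) and Pdcd1 (0.870, 0.667 to 1.14) had intervals that included 1.

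The remaining lists gave the following counts. Of 11 genes of the ILC1 and residency list 1 rose and 1 fell, and of 12 NKT genes 2 rose and 4 fell. Of 6 NKR-P1 and Clr genes 3 rose. Of these, 2 were of the Klrb1 family, Klrb1a and Klrb1f, and were called through double-receptor cells alone. Of 18 naive and memory genes 2 rose, Id3 and Bcl2, and 3 fell, 1 of them, Igfbp4, through receptor-negative cells alone. Of 20 effector transcription factor genes 2 rose and 4 fell. Of 15 common gamma chain receptor genes 1 rose and 1 fell, and of 14 STAT5 target genes 2 rose, Socs3 and Bcl2, and 1 fell, Gzmb. Of 14 cytokine and chemokine genes 2 rose, Xcl1 and Ccl5, and 6 fell, among them Ifng, Tnf and Csf1, and of 17 homing genes 3 rose, Cxcr4, Itga4 and Itgb1, and 4 fell, among them Cxcr6 and Ccr8. Of 19 interferon response genes 2 rose and 1 fell. Of the CD4 and regulatory T cell list 2 of 3 fell, Ctla4 and Tnfrsf4. No neutrophil gene was tested, neither of 2 B cell genes was called, and of 2 tumour and stroma genes Epcam rose and Areg fell (log2 fold change −2.36, −1.71 without the buffer library and −3.76 without the combination library). Epcam was called through double-receptor cells alone.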

How the data were processed

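The deposited expression matrices hold raw counts of UMIs for each gene and barcode. The authors made them with Cell Ranger, version 4.0.0 for experiment 1 (31053 genes) and version 6.1.2 for experiment 2 (32285 genes), as the headers of the matrices record, and the processing notes of the submitters name the GRCm38 build. The TCR tables deposited by the authors list assembled contigs with their counts of UMIs, with no software version. The members and all 31 gene lists (428 of 433 genes matched) were chosen with earlier results of these data known.

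No doublets were called or removed. Double-receptor cells with more than 3 times the median UMIs of receptor-negative cells numbered 2, 3, 4 and 5 (10 mg/kg, buffer, combination, 1.25 mg/kg). Barcodes with both receptors and no Cd3 UMI numbered 2, 5, 4 and 25. UMI counts were summed per library and class over 30406 shared genes, and genes with a mean of at least 5 CPM were tested with edgeR 4.0.16 (TMM scaling, library as block, glmQLFTest), with DESeq2 1.42.0 as an alternative. The same test compared cells with and without TRB in libraries with at least 10 cells of each. Shares were compared by an exact sign-flip permutation test over libraries. Treatments had no test. Their folds are ratios of CPM, for genes with at least 100 CPM in 1 library, and named ones have the largest log2 ratio of CPM + 10. Intervals are exact (Clopper-Pearson, Poisson or conditional binomial, 95%), cover counting error only, and a count of 0 allows 3 counts. Scripts used R 4.3.3, Python 3.11.15 and scipy 1.17.1 and were tested on simulated data.

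Named genes are, among calls of the same sign in all libraries without TCR, immunoglobulin, mitochondrial, ribosomal, haemoglobin, unnamed and rule genes, the 12 highest and 12 lowest, the 3 largest changes of each list, and a fixed set (Cd4, Ncr1, Fcer1g, Tyrobp, Eomes, Tbx21, Zbtb16, Il2rb, Trdc, Ikzf2, Tcf7, Pdcd1, Gzma, Gzmb, Prf1, Ifng, Mki67), with 8 each way for the TRB comparison and 6 for treatments. Other genes are named as members of a list that was called, and Spp1, Car2, Ifitm2 and Ifitm3 under the TRB rule.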

Additional observations from a re-analysis of the deposited data

Results flagged for a closer look

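For 2 listed genes, both libraries of experiment 1 moved one way and both of experiment 2 the other when double-receptor cells were set against receptor-negative cells. Whether the experiments differ was not tested for either gene. Ms4a7, a macrophage gene, had a mean log2 ratio of −0.17 in experiment 1 and 1.28 in experiment 2. Its experiment 2 value rests on the 1.25 mg/kg library, where 3 cells held its 23 UMIs and 1 of them 56.5%. Ighm, the immunoglobulin heavy chain gene, had a mean log2 ratio of 0.98 in experiment 1 and −0.21 in experiment 2. Neither gene was called over the 4 libraries by edgeR (adjusted p = 0.22 for Ms4a7 and 0.29 for Ighm).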

How the results depend on the processing

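The lower clonotype share kept its direction under the settings run, as did Fcer1g and Tyrobp, whose calls were lost with no library block. The other NK defining genes tested passed the filter only through double-receptor cells, so their direction supports nothing. Leaving out a library in turn gave −46.0 to −26.6 points for the share in clonotypes of at least 2 cells and −3.95 to 0.17 points for the TRB share. The double-receptor share of Cd3-positive barcodes depended on depth and on the minimum. Thinned to 3000 UMIs per cell it was 0.963% (10 mg/kg), 1.18% (buffer), 0.490% (combination) and 0.249% (1.25 mg/kg). With at least 2 UMIs of each kind it was 0.968%, 1.04%, 0.324% and 0.134%. Both settings turn the order of the 10 mg/kg and buffer libraries. With macrophage genes at 0 UMIs the buffer share was 1.27%. Against 479 genes called by edgeR, the counts were 236 with at least 2 UMIs of each kind, 278 in clonotypes seen once, 174 at a mean of at least 50 CPM, 882 with no filter, 16 with no library block and 172 to 477 leaving out a library. DESeq2 gave 198 higher and 199 lower, against 188 and 291. Clonotypes seen once turned Tbx21 to 0.13 and Ifng to 0.61 on the log2 scale. Over named genes and settings, 172 calls were lost, 69 of them with no library block and 23 without the combination library. For cells with and without TRB, against 13 genes called, DESeq2 gave 1, RLE scaling 21, cells with a Cd8 UMI 6 and leaving out a library 33 to 61. Treatment calls in experiment 1 were 42, with 17 at a minimum of 300 CPM and 162 when thinned (65 higher, 97 lower). In experiment 2 they were 52, with 21 at 300 CPM, 93 in cells with a TRB contig and 207 when thinned (118 higher, 89 lower). The cause of these shifts was not tested. The 1.25 mg/kg library has 48 double-receptor cells, which limits the precision there.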
